A study of Homo sapiens with 15 samples.

Results

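The 34 genes described here encode enzymes of the tricarboxylic acid (TCA) cycle, malic and anaplerotic enzymes, enzymes of glutamine and glutamate metabolism, and carriers that move pyruvate, citrate, malate and aspartate across the inner mitochondrial membrane. They were chosen by symbol as members of these pathways, and all 34 were found among the 62700 gene rows of both count tables. They comprised 17 TCA enzymes, 5 malic and anaplerotic enzymes, 5 glutamine and glutamate enzymes and 7 carriers. RNA came from 143B, an established human osteosarcoma cell line. The 5 conditions had 3 libraries each. Non-OSCs were unmodified 143B cells grown attached to plastic in serum medium with sodium pyruvate. OSCs (osteosarcoma stem cells) were unmodified 143B cells grown in serum-free tumorsphere medium with EGF, basic FGF, a B27 supplement and GlutaMAX, a stable form of glutamine. In the other 3 conditions, 143B OSCs carried a lentiviral hairpin, either the control shCtrl or one of 2 hairpins against PDK1, shPDK1#1 and shPDK1#2. PDK1 is the pyruvate dehydrogenase kinase that restrains the entry of pyruvate into the TCA cycle. Media differed in serum, pyruvate, glutamine source and growth factors, so state, culture format and medium cannot be told apart in the comparison of OSCs with non-OSCs. In bulk RNA, fewer cells of a type and less RNA per cell cannot be told apart either.

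In the TCA cycle, acetyl-CoA made from pyruvate is joined to oxaloacetate to form citrate, which is oxidised step by step back to oxaloacetate, and the electrons released feed the respiratory chain. Intermediates withdrawn for synthesis are replaced by anaplerosis, from pyruvate through pyruvate carboxylase or from glutamine through glutamate and oxoglutarate. Many steps exist as a mitochondrial and a cytosolic isoenzyme, and carriers such as those of the malate-aspartate shuttle connect both compartments.

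The libraries held between 7992499 and 11256536 counts. Levels are given as CPM, the count scaled to the TMM-normalized library size, on which a single count was worth about 0.1. The chi-square over its degrees of freedom was 1.94 to 3.66 for pairs of replicates, above sampling noise, so each library entered on its own. PDK1 itself checked the labels of the knockdown. It had 45.2 ± 1.28 CPM with shCtrl, 28.1 ± 0.844 with shPDK1#1 and 19.8 ± 1.65 with shPDK1#2 (SD, n = 3 each), and no library of one condition overlapped another. In the other table PDK1 was at 46.6 ± 4.47 CPM in non-OSCs and 70.3 ± 3.03 in OSCs. Of 9 osteoblast lineage markers, SPP1, COL1A1, SPARC and RUNX2 were detected in every library. IBSP was at 0 in all of them, and SP7 and BGLAP stayed at or under 0.658 CPM. ALPL was lower in OSCs, at 0.809 to 2.17 CPM, than in non-OSCs, at 2.31 to 3.065. COL1A2, too, was lower, with at most 0.123 CPM in OSCs and at least 0.766 in non-OSCs. Of the 5 markers tested, 3 were higher and 1 lower in OSCs, where 32.4% and 31.5% of all genes tested were. Their log2 fold changes lay between -1.112 and 2.352, and 3 were above 0. SPP1, COL1A1, SPARC and RUNX2 thus did not all rise. The CPM of the 9 markers summed to at least 1083.85 and at most 1146.69 in non-OSCs, with 2495.12 and 2576.34 as the bounds in OSCs. They summed to between 3650.78 and 3728.91 CPM with shCtrl, between 3917.91 and 3992.74 with shPDK1#1 and between 5210.79 and 5344.81 with shPDK1#2. Their part in the differences below was not tested. Endothelial, epithelial and immune markers each summed to at most 6.72 CPM in any library, and CDH5 was at 0 throughout.

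Of the 34 genes, 32 had enough counts to be tested. GLS2, the liver-type glutaminase, had between 0 and 5 counts in the 15 libraries, and 13 of them were at or under the floor of 3 counts. ME3, a mitochondrial malic enzyme, had between 0 and 12 counts. For these 2 genes no difference was detectable at this depth. Among the tested genes a library held between 72 counts (OGDHL) and 3780 counts (MDH2).

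Per kilobase of the main transcript, MDH2, the mitochondrial malate dehydrogenase, was the most abundant of the genes in both states, at 114 ± 0.513 CPM per kb in OSCs and 176 ± 7.39 in non-OSCs. In non-OSCs, CS (citrate synthase) followed at 111 ± 3.35 CPM per kb. MDH1, DLST and GOT2 came next at 86.1 ± 4.21, 83.9 ± 1.62 and 82.5 ± 2.54 CPM per kb, and the ranges of MDH1 and DLST, and of DLST and GOT2, overlapped. In OSCs, MDH1 (72.9 ± 5.08 CPM per kb), DLST (72.9 ± 3.33) and CS (68.8 ± 1.59) followed MDH2 with overlapping ranges, and GOT2 ranked 10, at 43.3 ± 2.16. At the lower end of the tested genes, OGDHL had the least in OSCs (2.52 ± 0.256 CPM per kb), whereas in non-OSCs it stood at 8.80 ± 0.930, above SLC25A12 at 7.18 ± 0.986.

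The comparison of OSCs with non-OSCs asked how these genes differ between the stem-like and the bulk culture. Most of them were lower in OSCs. Of the 32 tested genes, 24 were lower and 3 higher in OSCs (edgeR's quasi-likelihood test, Benjamini-Hochberg adjusted p under 0.05), while over all 14287 genes tested 31.5% were lower and 32.4% higher. The median log2 fold change of the 32 genes was -0.48, that of all genes tested -0.01. A fall was found for 14 of 17 TCA enzymes (median log2 fold change -0.48) and for 3 of 4 malic and anaplerotic enzymes (-0.60). All 4 tested glutamine and glutamate enzymes fell (-0.46), and so did 3 of 7 carriers (-0.27). The 3 genes that rose, IDH2, IDH1 and SLC25A1, handle citrate or isocitrate, as do CS, ACO1, IDH3A and IDH3B, which fell. The libraries of both groups did not overlap for 27 of the 32 genes, the same 27 that were called, and for 66.9% of all genes tested.

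**Figure D1:**
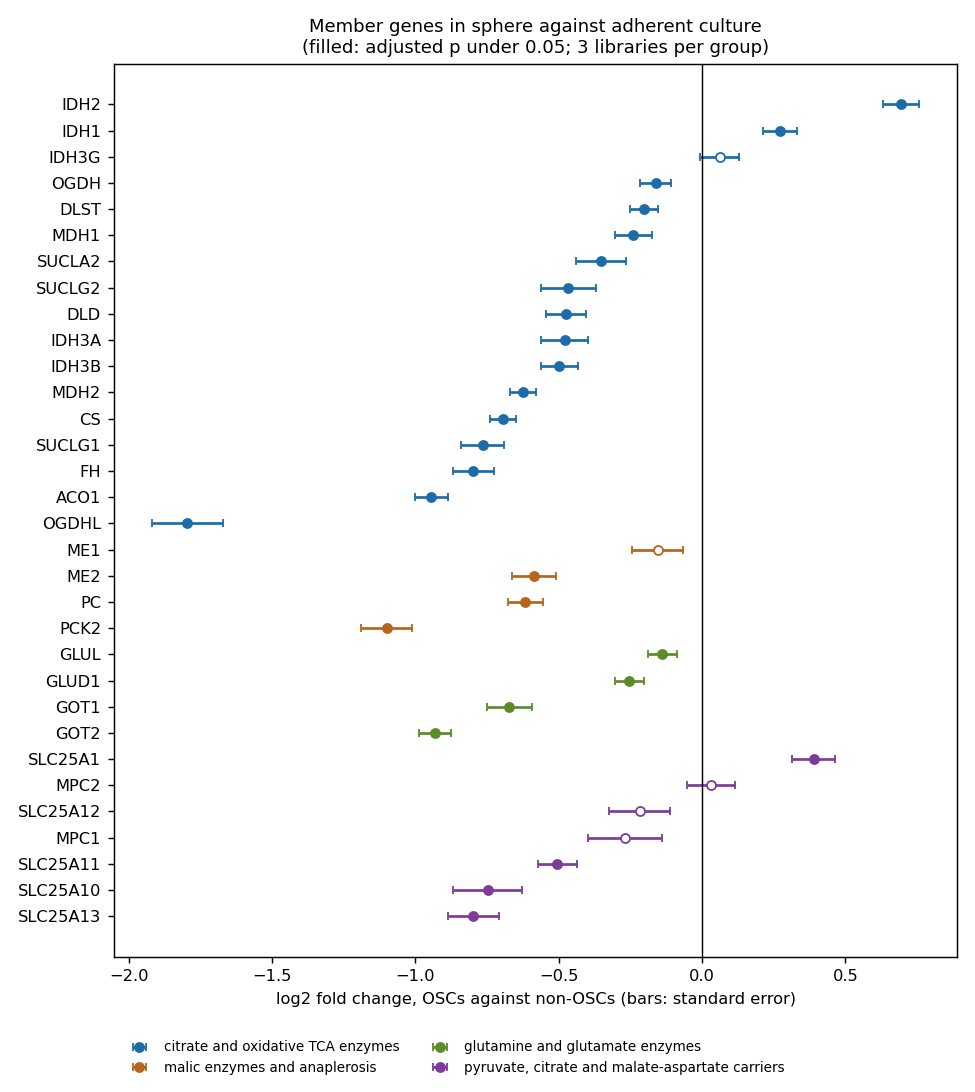
Log2 fold change of the 32 tested genes in OSCs against non-OSCs (x axis), with bars for the standard error, grouped and coloured by role; filled points have an adjusted p under 0.05. Of the genes, 24 lie to the left of 0 and are filled, from OGDHL at -1.80 to GLUL at -0.14, and 3 are filled on the right.

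OGDHL changed most. It encodes a tissue-restricted relative of OGDH, the oxoglutarate dehydrogenase that catalyses the step from oxoglutarate to succinyl-CoA. OGDHL (chr10:49734641-49762379, minus strand, 23 exons) had 8.87, 10.4 and 8.70 CPM in the OSC libraries and 30.3, 36.6 and 31.0 CPM in the non-OSC libraries. The groups were far apart, with the highest OSC library at 10.4 CPM. Its mean was 3.47-fold lower in OSCs (log2 fold change -1.80, standard error 0.123, adjusted p = 3.14e-11). OGDH (chr7:44606572-44709066), whose protein is found in most tissues, had 139.0, 146.5 and 139.4 CPM in OSCs and 151.7, 163.6 and 160.4 in non-OSCs. The OSC libraries of OGDH were all below the non-OSC libraries (log2 fold change -0.16, standard error 0.0538, adjusted p = 0.0122). That call was lost without non-OSC replicate 2 or without OSC replicate 3, and over all alternatives the log2 fold change lay between -0.20 and -0.12. DLST and DLD, the other subunits of the complex, fell by 0.20 and 0.48 on the log2 scale.

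The OGDHL promoter is shown because OGDHL had the largest change in OSCs and with shPDK1#2. The GOT2 promoter is shown because GOT2, too, fell in OSCs and rose with shPDK1#2 and holds one of the same motifs. The shared motif thus follows from the choice, and the GOT2 rise was lost in 7 of 15 alternatives. Both are RefSeq windows on GRCh38.p14 from 250 bases before to 50 bases after the annotated start, read 5′ to 3′ on the gene's strand. Capitals mark motif matches.
OGDHL, chr10:49762274-49762573, minus strand: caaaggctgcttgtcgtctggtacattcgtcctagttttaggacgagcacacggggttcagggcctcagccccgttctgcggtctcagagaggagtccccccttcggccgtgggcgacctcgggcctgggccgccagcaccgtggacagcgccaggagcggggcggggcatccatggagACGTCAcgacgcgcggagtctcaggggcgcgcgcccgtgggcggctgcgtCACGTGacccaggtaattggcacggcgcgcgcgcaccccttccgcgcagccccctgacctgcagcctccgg
GOT2, chr16:58734267-58734566, minus strand: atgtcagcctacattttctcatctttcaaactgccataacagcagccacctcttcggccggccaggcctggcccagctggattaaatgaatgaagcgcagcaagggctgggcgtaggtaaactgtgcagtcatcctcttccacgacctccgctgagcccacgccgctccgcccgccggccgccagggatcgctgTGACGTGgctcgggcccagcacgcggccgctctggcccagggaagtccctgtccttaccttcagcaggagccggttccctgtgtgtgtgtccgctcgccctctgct
The first capitals of OGDHL are the cyclic AMP response core TGACGT on the opposite strand, 71 bases before the start, and the second are the E-box CACGTG, 21 bases before it. In GOT2 the core TGACGT begins 56 bases before the start and overlaps ACGTG, the core of hypoxia response elements, which the E-box also contains. On both strands of all 27305 promoters in the table, TGACGT occurred in 8.32%, CACGTG in 7.43% and ACGTG in 21.6%. Among the 33 of the 34 genes that had a promoter in the table, TGACGT occurred in 5 (DLD, GOT2, IDH3G, OGDHL and PC), CACGTG in 3 (ME3, OGDHL and SLC25A13) and ACGTG in 7. The ATF4 response core TGATGNAA (3.67% of all promoters) was found for GOT1 and SLC25A11, the estrogen-related receptor motif AAGGTCA (3.97%) for SUCLA2 and the NRF1 core GCATGCGC (3.27%) for GLS2. CS, FH, MDH1, MDH2 and SUCLG1, which also fell in OSCs and rose with shPDK1#2, had no TGACGT match, whereas PC had one. These matches are a description of the sequence.

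Among the enzymes that form and turn over citrate, CS (chr12:56271699-56300391), which makes citrate from acetyl-CoA and oxaloacetate, had 197.3, 198.3 and 205.8 CPM in OSCs and 334.9, 315.9 and 321.5 in non-OSCs. All OSC libraries were lower, 1.62-fold in the mean (log2 fold change -0.69, standard error 0.0467, adjusted p = 2.31e-11). Other annotated genes, one of which overlaps CS on the same strand, share 29.2% of the CS sequence, so part of its reads could belong to them. ACO1 (chr9:32384603-32454769), the cytosolic aconitase and iron regulatory protein, had 88.8, 79.9 and 83.4 CPM in OSCs and 164.5, 159.9 and 159.9 in non-OSCs. No library overlapped, and the mean was 1.92-fold lower in OSCs (log2 fold change -0.94, standard error 0.0579, adjusted p = 4.71e-12).

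Both NADP-dependent isocitrate dehydrogenases, which interconvert isocitrate and oxoglutarate, went the other way. IDH2 (chr15:90083045-90102477), the mitochondrial enzyme, had 115.6, 104.6 and 111.4 CPM in OSCs and 69.0, 66.3 and 69.4 in non-OSCs. It was 1.62-fold higher in OSCs (log2 fold change 0.69 with a standard error of 0.0631, adjusted p = 3.31e-09), the largest rise of the 32 genes. The cytosolic IDH1 (chr2:208236229-208266074) had 109.2, 99.0 and 103.6 CPM in OSCs and 86.6, 85.5 and 85.8 in non-OSCs. All OSC libraries of IDH1 were above all non-OSC libraries (log2 fold change 0.27, standard error 0.0607, adjusted p = 0.000511). SLC25A1 (chr22:19175581-19178739), the carrier that exports citrate from mitochondria, had 68.1, 74.8 and 73.5 CPM in OSCs and 50.1, 57.7 and 57.7 in non-OSCs. It was 1.31-fold higher in OSCs without overlap (log2 fold change 0.39 with a standard error of 0.0751, adjusted p = 0.000112). The NAD-dependent isocitrate dehydrogenase of the cycle has 3 kinds of subunit. Of these, IDH3A and IDH3B fell by 0.48 and 0.50 on the log2 scale, while IDH3G had a log2 fold change of 0.06 (adjusted p = 0.449). Exons of other genes on the opposite strand cover 38.8% of the IDH3A exons, and the strandedness of the libraries is not given in the sources used here.

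Further along the cycle, FH (chr1:241497511-241519799), the fumarase that hydrates fumarate to malate, had 45.3, 45.3 and 43.9 CPM in OSCs and 76.0, 80.9 and 77.0 in non-OSCs. The groups were separate and the mean was 1.74-fold lower in OSCs (log2 fold change -0.80, standard error 0.0701, adjusted p = 1.9e-09). SUCLG1, the subunit shared by both forms of succinyl-CoA synthetase, fell by 0.77 on the log2 scale. The partner subunits SUCLG2, for the GTP-forming enzyme, and SUCLA2, for the ATP-forming one, fell by 0.47 and 0.35. SUCLG2 had 28.2, 24.1 and 27.5 CPM in OSCs and 36.6, 34.3 and 39.1 in non-OSCs. SUCLA2 had 40.3, 42.3 and 36.0 CPM in OSCs and 55.4, 47.7 and 48.4 in non-OSCs. Both genes were apart between groups, and other annotated transcripts share 23.9% and 13.9% of their sequence. MDH2, which regenerates oxaloacetate in mitochondria, had 249.5, 247.3 and 248.1 CPM in OSCs and 364.5, 391.5 and 393.0 in non-OSCs. MDH2 fell by 0.63 on the log2 scale and its cytosolic counterpart MDH1 by 0.24. MDH1 had 93.6, 101.4 and 88.3 CPM in OSCs and 117.9, 108.5 and 108.4 in non-OSCs, again without overlap.

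Among the malic and anaplerotic enzymes, PCK2 fell most. PCK2 (chr14:24094053-24110598), the mitochondrial phosphoenolpyruvate carboxykinase, had 26.9, 25.1 and 28.3 CPM in OSCs and 53.0, 57.7 and 61.2 in non-OSCs. No library overlapped, and the mean was 2.14-fold lower in OSCs (log2 fold change -1.10, standard error 0.0879, adjusted p = 4.02e-10). PC, the pyruvate carboxylase that makes oxaloacetate, went from 129.0 ± 7.19 CPM in non-OSCs to 84.2 ± 3.73 in OSCs (SD, n = 3 each, 1.53-fold lower). ME2, the mitochondrial NAD-dependent malic enzyme, had 42.5, 46.2 and 44.3 CPM in OSCs and 72.6, 63.7 and 63.5 in non-OSCs, which fell by 0.59 on the log2 scale. ME1, the cytosolic NADP-dependent malic enzyme, had 40.0, 39.0 and 34.1 CPM in OSCs and 45.4, 40.8 and 39.6 in non-OSCs. The groups of ME1 overlapped, and its log2 fold change of -0.16 did not pass the threshold (adjusted p = 0.138).

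All 4 tested enzymes around glutamate were lower in OSCs, the aspartate transaminases of the malate-aspartate shuttle among them. GOT2 (chr16:58707131-58734342), the mitochondrial aspartate transaminase, had 101.6, 102.1 and 110.9 CPM in OSCs and 199.7, 193.5 and 205.8 in non-OSCs. The groups were separate and the mean was 1.90-fold lower in OSCs (log2 fold change -0.93 with a standard error of 0.0553, adjusted p = 2.8e-12). The cytosolic GOT1 had 35.2, 33.7 and 36.6 CPM in OSCs and 56.6, 55.5 and 55.9 in non-OSCs, 1.59-fold lower. GLUD1, the glutamate dehydrogenase that yields oxoglutarate, went from 205.7 ± 6.53 CPM in non-OSCs to 172.6 ± 6.64 in OSCs (SD, n = 3 each, log2 fold change -0.25). Other annotated transcripts, among them the near-identical GLUD2, share 35.9% of the GLUD1 sequence. GLUL, the glutamine synthetase, had 157.8, 150.9 and 155.6 CPM in OSCs and 174.3, 165.8 and 170.6 in non-OSCs. Its log2 fold change of -0.14 (adjusted p = 0.0224) was the smallest of those that passed, and the call was lost in 5 of 11 alternatives, among them the scaling by library size alone.

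The carriers were the most mixed of the groups, with 1 higher, 3 lower and 3 that did not pass. SLC25A13 (chr7:96120220-96322147), a mitochondrial aspartate-glutamate carrier also called citrin, had 29.2, 27.1 and 24.9 CPM in OSCs and 48.0, 46.9 and 46.2 in non-OSCs. It was 1.74-fold lower in OSCs without overlap (log2 fold change -0.80, standard error 0.0878, adjusted p = 6.71e-08). Its relative SLC25A12 had 23.3, 24.8 and 24.9 CPM in OSCs and 31.2, 23.9 and 29.6 in non-OSCs. Those groups overlapped, since non-OSC replicate 2 lay among the OSC libraries, and the log2 fold change was -0.22 (adjusted p = 0.083). Without that library SLC25A12 passed the threshold, at -0.33, and without non-OSC replicate 1 it stood at -0.14 (adjusted p = 0.294). SLC25A11, the oxoglutarate-malate carrier, and SLC25A10, the dicarboxylate carrier, fell by 0.51 and 0.75 on the log2 scale. Another gene on the same strand overlaps 46.6% of the SLC25A10 exons, so its value is uncertain.

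MPC1 and MPC2 form the mitochondrial pyruvate carrier. MPC1 had 19.0, 19.6 and 16.6 CPM in OSCs and 26.4, 21.2 and 18.6 in non-OSCs (log2 fold change -0.27, adjusted p = 0.0734). MPC2 had 34.7, 37.0 and 37.6 CPM in OSCs and 35.5, 36.3 and 35.2 in non-OSCs (log2 fold change 0.03, adjusted p = 0.755). Both overlapped between the groups. The log2 fold change of MPC1 ranged over all alternatives from -0.38 without non-OSC replicate 3, where it passed the threshold, to -0.12 without non-OSC replicate 1. It also passed with a replicate block (-0.26). The 95% interval of the log2 difference reached from -0.52 to -0.02 for MPC1 and from -0.13 to 0.20 for MPC2.

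**Figure D2:**
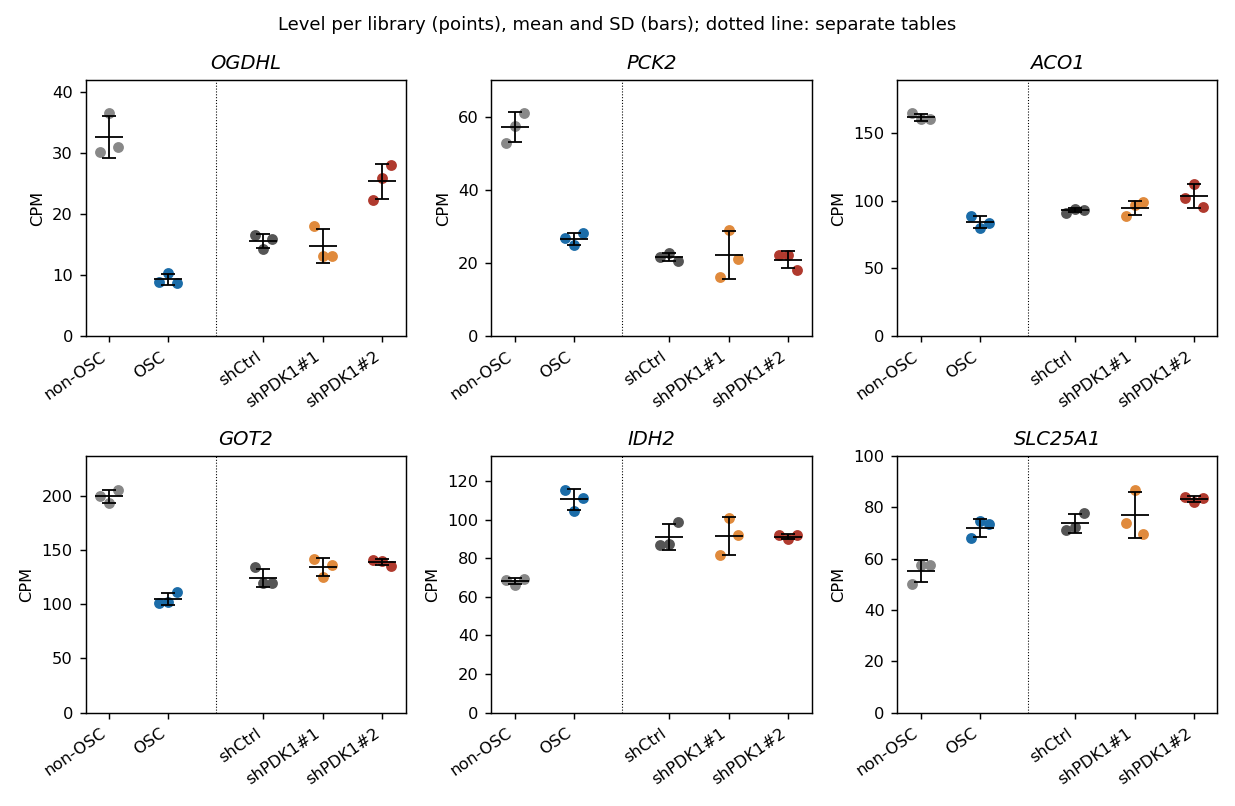
CPM of OGDHL, PCK2, ACO1, GOT2, IDH2 and SLC25A1 in each of the 15 libraries (points), with the mean and SD of each condition (bars); the dotted line separates the 2 count tables, between which levels are not compared. The OSC libraries of OGDHL, PCK2, ACO1 and GOT2 lie below all non-OSC libraries and those of IDH2 and SLC25A1 above them; among the hairpins, OGDHL stands out with shPDK1#2.

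Ratios within a library, which do not depend on its scaling, set the mitochondrial against the cytosolic isoenzymes. The ratio of IDH1 to IDH2 lay between 0.931 and 0.947 in OSCs and between 1.24 and 1.29 in non-OSCs. It thus moved toward the mitochondrial gene. These ratios of CPM do not account for transcript length. Per kilobase of the main transcript, IDH1 had 44.8 ± 2.2 CPM per kb in OSCs and IDH2 41.6 ± 2.09, with overlapping ranges. In non-OSCs, IDH1 had 37.1 ± 0.245 CPM per kb and IDH2 25.7 ± 0.626. In the separate hairpin table, the ratio of CPM of IDH1 to IDH2 lay between 1.09 and 1.29 in the shCtrl OSCs. No test was made across the tables. The ratio of MDH1 to MDH2 lay between 0.356 and 0.410 in OSCs and between 0.276 and 0.324 in non-OSCs. That of GOT1 to GOT2 lay between 0.330 and 0.347 in OSCs and between 0.271 and 0.287 in non-OSCs. The balance of these last 2 pairs thus moved toward the cytosolic gene, unlike that of IDH1 and IDH2. The ratio of ME1 to ME2 was higher in OSCs, with a geometric mean of 0.848 against 0.630, and that of SLC25A13 to SLC25A12 was lower, at 1.11 against 1.68. The ratio of OGDHL to OGDH, a pair added after its values had been seen, was 0.0657 in OSCs and 0.205 in non-OSCs. None of these 6 ratios overlapped between the groups (exact permutation test, two-sided, p = 0.1 each, the smallest that 3 libraries against 3 allow). The ratios of SUCLG2 to SUCLA2 (exact permutation p = 0.6) and of MPC1 to MPC2 (exact permutation p = 0.3) overlapped. Over the family of 8 ratios, the Benjamini-Hochberg adjusted value of each p of 0.1 was 0.133.

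**Figure D3:**
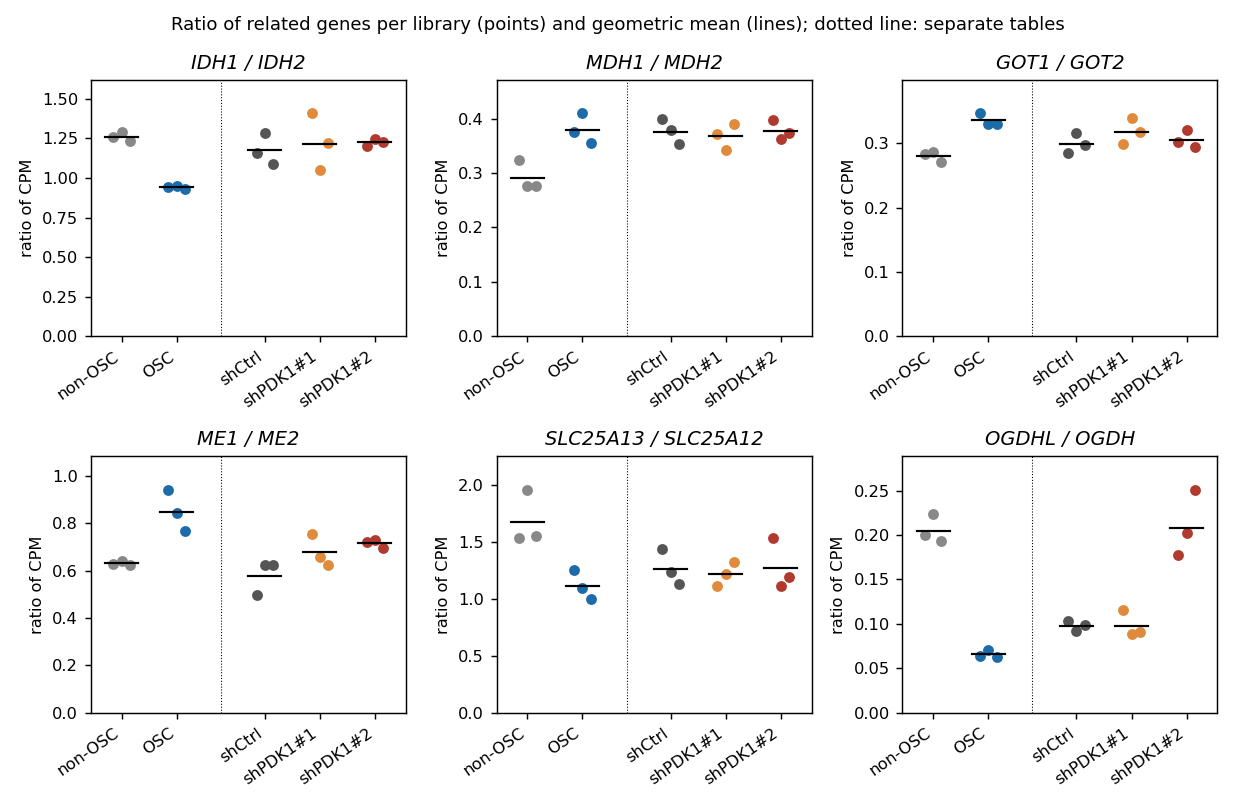
Ratio of the CPM of related genes in each library (points) with the geometric mean of each condition (lines), for 6 pairs; the dotted line separates the 2 count tables. OSC and non-OSC libraries are apart in all 6 panels, IDH1 to IDH2 falls from 1.26 to 0.941, and among the hairpins OGDHL to OGDH is 0.208 with shPDK1#2 against 0.0980 with shCtrl.

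Genes next to these pathways were taken from lists of pathway members. The counts below stand beside 31.5% of all genes tested that were lower and 32.4% that were higher in OSCs. Of 10 remaining genes of the TCA cycle or next to it, 6 were lower and 0 higher in OSCs. They were led by the succinate dehydrogenase subunits SDHB (log2 fold change -1.02) and SDHD (-0.99). Of 34 nuclear genes of oxidative phosphorylation, 30 were lower and 0 higher (median log2 fold change -0.50). Of 19 genes that mark mitochondrial content, 16 were lower and 0 higher (median -0.48), with PPARGC1B, a coactivator of mitochondrial biogenesis, at -1.71 and the chaperonin HSPD1 at -1.12. The medians of these last 2 lists were thus near that of the 32 genes. Of 20 tested genes of glutamine supply and use, 13 were lower and 3 higher. PSAT1, the transaminase of serine synthesis that uses glutamate, fell by 1.98 on the log2 scale, to 102.4 CPM from 403.6, and asparagine synthetase ASNS and the amino acid exchanger SLC7A5 fell by 1.65 and 1.48 on the log2 scale. Of 34 tested other mitochondrial carriers, 13 were lower and 9 higher. Of 13 tested genes of the pyruvate dehydrogenase complex and its regulators, 6 were lower, among them DLAT (-0.87), and 2 higher, led by the kinase PDK3 (100.2 CPM in OSCs and 35.3 in non-OSCs). Of 6 genes that make acetyl-CoA or use citrate or acetyl-CoA for synthesis, 4 were higher and 0 lower. They were led by HMGCS1 of sterol synthesis (1.60) and ACSS2, a synthetase that makes acetyl-CoA (0.52). Of 18 glycolysis genes, 9 were higher and 7 lower.

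In the knockdown experiment each hairpin was compared with shCtrl to ask how the genes respond to less PDK1. Both comparisons share the shCtrl libraries. With shPDK1#1, 0 of the 32 tested genes passed the threshold in edgeR's quasi-likelihood test, and 0 in DESeq2, while 1.62% of all 14574 genes tested were higher and 1.44% lower. At an unadjusted p under 0.05 there were 2, CS and GOT1, where 14.5% of all genes tested reached that level. The log2 fold changes lay between -0.12 (DLD) and 0.19 (GOT1), with a median of 0.03. The 95% intervals of the 32 log2 differences reached at most from -0.36 (OGDHL) to 0.43 (MPC1).

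With shPDK1#2, 9 of the 32 genes were higher and 2 lower, where 12.0% of all genes tested were higher and 14.2% lower. The median log2 fold change was 0.12, against 0.01 over all genes. The 9 were 6 TCA enzymes (OGDHL, SUCLG1, CS, FH, MDH1 and MDH2), ME1, PC and GOT2. OGDH and GLUD1, which use and make oxoglutarate, were the 2 that fell. None of the 7 carriers passed. All 7 had a value above 0, as did 7464 of the 14574 genes tested. MPC1 had the highest, with a log2 fold change of 0.34 (adjusted p = 0.0591) and overlapping libraries. The MPC1 value lay between 0.25 (without shPDK1#2 replicate 3) and 0.53 (without shCtrl replicate 2) and passed the threshold in 6 of 15 alternatives. The 9 rises were small: apart from OGDHL, they lay between 0.16 (GOT2) and 0.27 (SUCLG1) on the log2 scale. OGDHL, SUCLG1 and CS passed in all alternatives. FH, MDH1, MDH2, ME1, GOT2 and PC were each lost without at least 1 of the shCtrl or shPDK1#2 libraries, with log2 fold changes over all alternatives between 0.12 (PC) and 0.31 (FH). Without shCtrl replicate 3, 5 of the 32 genes were higher.

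**Figure D4:**
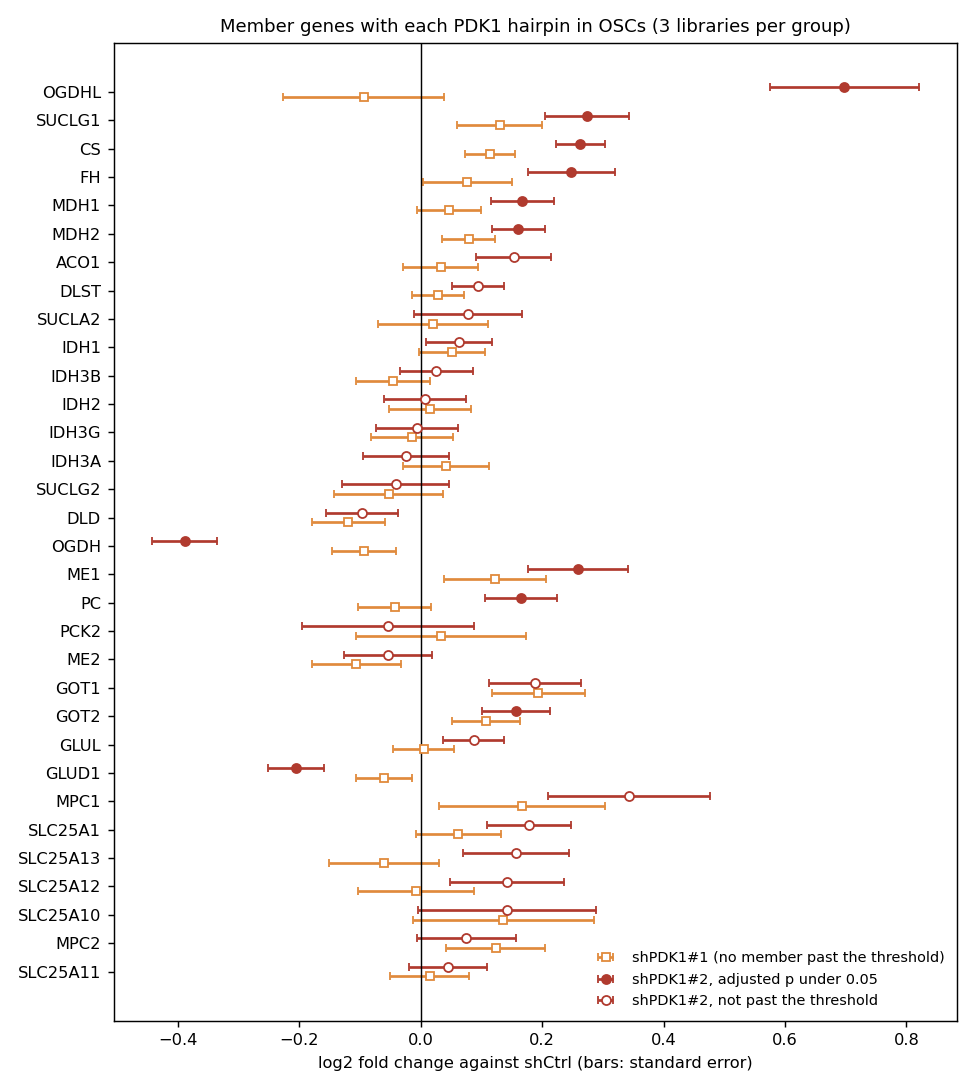
Log2 fold change of the 32 tested genes against shCtrl with shPDK1#1 (open squares) and shPDK1#2 (circles, filled at an adjusted p under 0.05), with bars for the standard error; both share the same 3 control libraries. With shPDK1#2, OGDHL stands at 0.70 and OGDH at -0.39, the ends of the range, and no square passes the threshold.

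OGDHL had 22.3, 25.9 and 28.0 CPM with shPDK1#2, 16.7, 14.4 and 15.9 with shCtrl and 18.0, 13.2 and 13.1 with shPDK1#1. The shPDK1#2 libraries stood above all others, while shPDK1#1 overlapped shCtrl. Its mean was 1.62-fold higher with shPDK1#2 than with shCtrl (log2 fold change 0.70, standard error 0.123, adjusted p = 9.67e-05) and its log2 fold change with shPDK1#1 was -0.09 (adjusted p = 0.824). OGDH moved the opposite way, with 125.5, 127.8 and 111.5 CPM with shPDK1#2, 160.9, 156.2 and 161.0 with shCtrl and 156.5, 148.2 and 144.0 with shPDK1#1. All shPDK1#2 libraries of OGDH were below all others (log2 fold change against shCtrl -0.39, standard error 0.0535, adjusted p = 3.32e-06). The ratio of OGDHL to OGDH lay between 0.177 and 0.251 with shPDK1#2, between 0.0919 and 0.104 with shCtrl and between 0.0890 and 0.115 with shPDK1#1. Only the shPDK1#2 libraries were apart from shCtrl in this ratio (p = 0.1 in the two-sided exact permutation test, its smallest value, or 0.4 adjusted over the 8 ratios).

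CS had 284.2, 290.0 and 295.7 CPM with shPDK1#2, 245.7, 235.3 and 244.2 with shCtrl and 267.1, 257.5 and 260.5 with shPDK1#1. The 3 conditions did not overlap, with shPDK1#1 between the others. CS rose by 0.26 on the log2 scale with shPDK1#2 (standard error 0.0402, adjusted p = 1.53e-05), and its value with shPDK1#1 was 0.11 (adjusted p = 0.147). SUCLG1 had 70.2, 63.7 and 73.3 CPM with shPDK1#2, 57.9, 57.9 and 55.4 with shCtrl and 66.2, 58.0 and 63.6 with shPDK1#1. It was 1.21-fold higher with shPDK1#2 than with shCtrl (log2 fold change 0.27, standard error 0.0691, adjusted p = 0.00392). GLUD1 had 177.3, 168.8 and 187.5 CPM with shPDK1#2, 199.4, 204.2 and 211.4 with shCtrl and 197.8, 197.2 and 194.9 with shPDK1#1. The shPDK1#2 libraries of GLUD1 were the lowest (log2 fold change against shCtrl -0.21, standard error 0.0462, adjusted p = 0.00149).

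The genes that had risen in OSCs did not pass the threshold with either hairpin. With shPDK1#2 the log2 fold changes of IDH2, IDH1 and SLC25A1 were 0.01, 0.06 and 0.18, and the upper ends of their 95% intervals were 0.14, 0.17 and 0.31. PCK2 was at 21.8 ± 1.13 CPM with shCtrl, 22.2 ± 6.58 with shPDK1#1 and 21.0 ± 2.38 with shPDK1#2 (SD, n = 3 each). The shPDK1#1 libraries of PCK2 spread from 16.2 to 29.2 CPM, around both other conditions.

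Other isoenzyme pairs kept overlapping ratios with the hairpins, apart from ME1 to ME2. That ratio had a geometric mean of 0.577 with shCtrl, 0.677 with shPDK1#1 and 0.716 with shPDK1#2. Neither hairpin overlapped shCtrl, but the lowest shPDK1#1 library, at 0.625, barely cleared the highest shCtrl library, at 0.624. The two-sided exact permutation test gave p = 0.1 each (adjusted over the 8 ratios 0.8 with shPDK1#1 and 0.4 with shPDK1#2). ME1 had 38.7, 38.3 and 40.6 CPM with shPDK1#2, 30.9, 33.5 and 33.8 with shCtrl and 39.2, 34.9 and 33.3 with shPDK1#1. Its log2 fold change was 0.26 with shPDK1#2 (adjusted p = 0.0212), a call that DESeq2 did not make, and 0.12 with shPDK1#1 (adjusted p = 0.564).

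Set directly against shPDK1#1, shPDK1#2 had 3 of the 32 genes higher (OGDHL, PC and CS) and 2 lower (OGDH and GLUD1), where 6.50% of all genes tested were higher and 9.78% lower. The log2 differences were 0.79 for OGDHL (standard error 0.123, adjusted p = 3.59e-05), 0.21 for PC (standard error 0.0592, adjusted p = 0.0156) and 0.15 for CS (standard error 0.0399, adjusted p = 0.0105). OGDH differed by -0.30 (standard error 0.0536, adjusted p = 0.00025) and GLUD1 by -0.15 (standard error 0.0462, adjusted p = 0.0317). The GLUD1 call was lost without shPDK1#1 replicate 1 or 3 or shPDK1#2 replicate 1 or 2 (log2 differences between -0.18 and -0.10 over all alternatives), which left 1 gene lower. The CS call was lost without shPDK1#2 replicate 3, and the PC call without shPDK1#1 replicate 3 or shPDK1#2 replicate 2. PDK1 itself was lower with shPDK1#2 than with shPDK1#1 (log2 difference -0.50, adjusted p = 0.00024). The part of that difference in the others was not tested.

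The counts in the neighbouring lists stand beside 12.0% of all genes tested that were higher and 14.2% that were lower with shPDK1#2. Of 34 genes of oxidative phosphorylation, 12 were higher and 0 lower (median log2 fold change 0.12). Of 19 genes of mitochondrial content, 9 were higher and 1 lower. Of 10 remaining genes of the TCA cycle or next to it, 3 were higher and 0 lower. Among the 3 were SDHD (log2 fold change 0.53) and NNT, the transhydrogenase that makes mitochondrial NADPH (0.26). Of 20 tested genes of glutamine supply and use, 11 were higher and 3 lower. ASNS was at 27.7 ± 4.68 CPM with shCtrl, 38.2 ± 0.944 with shPDK1#1 and 37.4 ± 2.63 with shPDK1#2 (SD, n = 3 each), and was called with both hairpins. Of 34 tested other carriers, 3 were higher and 0 lower, and of 13 tested pyruvate dehydrogenase genes, 2 were higher and 2 lower, PDK1 among the latter. Of 6 genes that make acetyl-CoA or use citrate or acetyl-CoA, 2 were higher and 1 lower. Of 18 glycolysis genes, 11 were higher and 0 lower. With shPDK1#1, 6 of the 18 glycolysis genes were higher, where 1.62% of all genes tested were. There, 0 genes of oxidative phosphorylation and 0 of mitochondrial content passed (edgeR's quasi-likelihood test). Of these 2 lists, 6 and 5 genes had an unadjusted p under 0.05, as did 14.5% of all genes tested.

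The experiments used different libraries, so the genes called in each can be set side by side. Of the 9 genes that rose with shPDK1#2, 8 had been lower in OSCs (CS, FH, GOT2, MDH1, MDH2, OGDHL, PC and SUCLG1), and ME1 had not passed. These 8 were 8 of the 24 genes lower in OSCs. Of the other 16, OGDH and GLUD1 fell with shPDK1#2 as well and 14 did not pass, among them PCK2, ACO1 and SLC25A13. Among all 32 tested genes, too, 24 were lower in OSCs, and no test was made of the overlap.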

How the data were processed

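RNA from 15 libraries of the 143B cell line, 3 for each of 5 conditions, was sequenced as paired-end reads (NEBNext Ultra RNA kit, NovaSeq platform). Per the labels and the study's methods, the authors used Trimmomatic 0.39, FastQC 0.12.1, STAR 2.7.11a on GRCh38.p14 and RSEM 1.3.3, and deposited an expected count per gene and library, without normalization. RSEM divides reads between transcripts they match equally, so 6.85% of values in one table and 6.92% in the other were not whole, and they were rounded. The annotation and the strandedness are not given in the sources used here. The OSC and non-OSC libraries are in one table, with columns named for 2D and 3D culture, and the hairpin libraries in another. Levels were not compared between tables. There were 0 columns without a condition.

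Counts were tested with edgeR 4.0.16 in R 4.3.3 (TMM scaling, filterByExpr by condition, quasi-likelihood test, Benjamini-Hochberg adjustment over all genes tested, threshold 0.05). The 9 hairpin libraries shared one fit. Filtering left 14287 and 14574 genes. Scaling factors lay between 0.981 and 1.02, and the biological coefficient of variation was 0.0548 and 0.0482. Standard errors were taken from the fold change and the F statistic, and 95% intervals from them. Nothing says that replicates came from separate cultures, so p-values measure the spread between these libraries, which may be technical. The scripts were tested on simulated counts. Ratios within libraries were compared by two-sided exact permutation tests. Figures were drawn with matplotlib 3.10.9 in Python 3.11.15. The smallest change a library can show is set by its depth: a floor of 3 counts was used, which covers counting error only.

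Identifiers, coordinates and exons came from GENCODE 44 on GRCh38, which held all 62700 identifiers of both tables. The share of each gene's sequence found in other genes was counted in stretches of 75 bases, and promoters came from RefSeq. Every gene of the list was accounted for. Values in every library were given for the 5 largest rises and falls in OSCs, and the 3 largest with each hairpin, among called genes with a mean of at least 10 CPM, and for isoenzyme pairs. From neighbouring lists up to 3 called genes with the largest changes were named. The genes, the 12 neighbouring and marker lists and the tests were chosen with earlier results of these data known. Alternatives were DESeq2 1.42.0, scaling by library size, 2 other filters, a replicate block, a fit of only the compared conditions, and leaving out each library. Reads were not aligned again, and the single-cell, protein and animal experiments were not analysed here.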

Additional observations from a re-analysis of the deposited data

Results flagged for a closer look

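The effect of the hairpins, each against shCtrl, differed between shPDK1#2 and shPDK1#1 for 5 of the 32 tested genes. This was tested by the contrast of both hairpins in edgeR's quasi-likelihood test, where a similar share of all genes tested, 16.3%, differed. The log2 difference was 0.792 for OGDHL (adjusted p = 3.59e-05), 0.208 for PC (adjusted p = 0.0156), 0.148 for CS (adjusted p = 0.0105), -0.295 for OGDH (adjusted p = 0.00025) and -0.145 for GLUD1 (adjusted p = 0.0317). The 3 libraries of one hairpin were apart from the 3 of the other for 8 of the 32 genes, these 5 among them. The same held for 30.7% of all genes tested. For OGDHL and OGDH the call held in all 15 alternatives, while for CS, PC and GLUD1 it was lost in 1, 2 and 5 of them.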

How the results depend on the processing

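None of the log2 fold changes followed through the alternatives changed sign (all 32 genes in OSCs, and 5, 16 and 9 genes with shPDK1#1 against shCtrl, shPDK1#2 against shCtrl and shPDK1#2 against shPDK1#1). The other genes with the hairpins were not followed. In OSCs against non-OSCs, 25 of the 27 calls held in all 11 alternatives. The exceptions were GLUL, lost without non-OSC replicate 3 or OSC replicate 2 or 3, with scaling by library size or with no filter, and OGDH, lost without non-OSC replicate 2 or OSC replicate 3. The number of lower genes lay between 22 and 24 with a library left out, and the number of higher genes stayed at 3. With shPDK1#2 against shCtrl, OGDHL, CS, SUCLG1, OGDH and GLUD1 held in all 15 alternatives. FH, GOT2, MDH1, MDH2, ME1 and PC were lost in at least 1, PC in 8 and GOT2 in 7. With a library left out, FH was lost without shCtrl replicate 2 or 3 or shPDK1#2 replicate 2, MDH1 without shCtrl replicate 3 or shPDK1#2 replicate 1, MDH2 without shCtrl replicate 1, ME1 without shCtrl replicate 1 or shPDK1#2 replicate 3, PC without any shCtrl library or shPDK1#2 replicate 2 or 3, and GOT2 without shCtrl replicate 2 or 3 or any shPDK1#2 library. The number of higher genes was 9, and between 5 (without shCtrl replicate 3) and 11 with a library left out. DESeq2 called 6. ACO1, MPC1 and SLC25A1 passed in some alternatives. With shPDK1#2 against shPDK1#1, the number of lower genes was 2, fell to 1 with only these conditions in the fit, and lay between 1 and 2 with a library left out. The number of higher genes lay between 2 and 4. The number of genes called with shPDK1#1 stayed at 0 in all alternatives.

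The replicate numbers did not pair the libraries (correlations of same-numbered deviations from the group means between -0.0625 and 0.0808). With a replicate block, 25 genes were lower and 3 higher in OSCs, and 9 were higher and 2 lower with shPDK1#2, so the block moved no count by over 1.5 times. Depth limited GLS2 and ME3, which could not be tested.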
